A study of Mus musculus with 9 samples.

Results

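The genes *Emx1*, *Emx2*, *Dlx1*, *Dlx2*, *Dlx5*, *Six3*, *Lhx2*, *Barhl2* and *Tcf7l2* encode transcription factors that pattern the forebrain and the diencephalon, the brain region just rostral to the midbrain. They were taken as 9 of the 51912 genes in the table of normalized counts because their identifiers carry these symbols in the GRCm38 annotation. All 9 passed the minimum mean normalized count of 5 that 16993 genes reached. The values come from RNA of mouse midbrains (C57Bl/6 background) that were micro-dissected at E14.5, a stage at which neurons are being born. The design held 3 *Nkx2.9*+/+ libraries, 3 heterozygous *Nkx2.9*LacZ/+ libraries and 3 *Nkx2.9*LacZ/LacZ libraries, and on the targeted allele LacZ was knocked in so that it replaced exon 1. Each library pooled 2 midbrains, so p-values measure the spread between pools. The columns of the table carry a genotype but no replicate number, and libraries are therefore named by their column, with 1 to 3 for *Nkx2.9*LacZ/LacZ, 4 to 6 for *Nkx2.9*LacZ/+ and 7 to 9 for *Nkx2.9*+/+.

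The brain tube is divided along its length by transcription factors that are each made in a limited stretch and that repress or activate one another at the borders. *Dlx* genes mark the ganglionic eminences of the telencephalon and the prethalamus, where GABAergic neurons are born. *Emx* genes mark the dorsal telencephalon, *Six3* the most anterior forebrain, and *Tcf7l2*, a nuclear effector of Wnt signaling, is a known marker of the thalamus, habenula and pretectum. The pretectum lies directly against the midbrain, the thalamus in front of it and the prethalamus further rostral, so a dissection can include more or less of each. In bulk RNA, fewer cells of a type and less RNA per cell cannot be told apart.

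Between 1692963 and 5942192 reads per library fell on genes (median 4921748), and column 7 was the shallowest. The targeted gene (*Nkx2-9* in the files) had 4, 6 and 3 reads in columns 1 to 3, 0, 7 and 4 in columns 4 to 6 and 0, 2 and 2 in columns 7 to 9. Its mean normalized count was 3.69 in columns 1 to 3 and 0.959 in columns 7 to 9, without overlap (two-sided exact permutation p = 0.1, the smallest possible). These counts cover the whole gene rather than the replaced part alone, so they do not check the labels. Genotypes and directions below are those of the labels. For *En1*, *En2*, *Pax7*, *Tph2* and *Wnt8b*, the direction under the labels was the reverse of the one that the paper reports. The cause was not tested, so every signed difference between genotypes below holds only under the labels. The title of the series speaks of cortical material, whereas the sample labels and the paper speak of midbrain. Of the 14 genes of the telencephalon list 7 were over the minimum, with a summed normalized count of the list from 863 to 1120 over the libraries. *Bcl11b*, a zinc finger factor that other neurons also make, held most of it with a mean of 862, followed by *Neurod6* with 45.0 and *Neurod2* with 42.1, while *Gsx2* and *Lhx8* were at 0 in all 9 libraries. The midbrain list had all 20 genes over the minimum, and its summed normalized count ranged from 4787 to 5921. Columns 2, 4 and 9, 1 library of each genotype, stood apart from the other 6 in *Dlx1*. Column 4 also had the lowest *Lhx2* and *Tcf7l2*.

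Per kilobase of exon, which allows levels to be compared between genes, *Tcf7l2* was highest with a mean of 372 ± 55.6 normalized counts per kb (SD, n = 9). *Barhl2* followed with 68.8 ± 10.9 and *Lhx2* with 64.1 ± 12.3 normalized counts per kb, which lie within each other's spread. *Emx2* at 30.5 ± 4.60 and *Six3* at 26.4 ± 6.03 normalized counts per kb also could not be separated by their spread. The *Dlx* genes and *Emx1* were lowest, with 7.54 ± 5.10 for *Dlx1*, 4.24 ± 3.48 for *Dlx5*, 3.11 ± 2.36 for *Emx1* and 2.09 ± 1.81 normalized counts per kb for *Dlx2*, and their ranges overlapped. The depth behind these levels differed accordingly. Over all 9 libraries *Tcf7l2* had 32614 reads and *Lhx2* 2804, while *Dlx1* had 412, *Dlx5* 104, *Emx1* 66 and *Dlx2* 58.

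In GRCm38, *Dlx1* (ENSMUSG00000041911) occupies positions 71528113 to 71533981 of chromosome 2 (plus strand) and *Dlx2* (ENSMUSG00000023391) positions 71543408 to 71546754 of the same chromosome (minus strand), so the pair converges. *Dlx5* (ENSMUSG00000029755) occupies positions 6877805 to 6882085 of chromosome 6 (minus strand), beside *Dlx6* in another such pair. *Emx1* (ENSMUSG00000033726) is on the same chromosome at 85187438 to 85204462 (plus strand). *Emx2* (ENSMUSG00000043969, 59458372 to 59465357) and *Tcf7l2* (ENSMUSG00000024985, 55741820 to 55933654) are on the plus strand of chromosome 19. *Lhx2* (ENSMUSG00000000247) spans 38339281 to 38369733 of chromosome 2, *Six3* (ENSMUSG00000038805) 85613608 to 85629302 of chromosome 17, both on the plus strand, and *Barhl2* (ENSMUSG00000034384) 106452523 to 106458166 of chromosome 5 on the minus strand. The *Dlx* pairs are known to share enhancers between their genes. The noncoding gene *Dlx1as* runs opposite to *Dlx1* and shares 335 of its 5396 exonic bases, *Emx2os* shares 264 of the 3002 exonic bases of *Emx2*, and opposite and same-strand neighbours share 274 of the 5446 exonic bases of *Six3*. Since the strand setting of the counting is not stated, reads on those bases are uncertain. *Dlx2*, *Dlx5*, *Emx1*, *Lhx2*, *Barhl2* and *Tcf7l2* share no exonic base with another annotated gene.

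*Dlx1*, *Dlx2* and *Dlx5* had their 3 lowest values in the same 3 libraries, 1 of each genotype, and for *Dlx1* these lay apart from the others beyond counting error. *Dlx1* had 58.0, 11.9 and 64.4 normalized counts in columns 1 to 3, 0, 61.5 and 69.3 in columns 4 to 6 and 51.7, 44.9 and 4.42 in columns 7 to 9. The 6 higher libraries thus lay between 44.9 and 69.3 and the 3 lower ones between 0 and 11.9, with no value between them. These values rest on 64 to 85 reads in 5 of the higher libraries and 20 in the shallow column 7, against 13, 0 and 6 reads in columns 2, 4 and 9. The 95% exact Poisson intervals, which cover counting error only, ran up to 20.3, 6.01 and 9.61 normalized counts in columns 2, 4 and 9, below the lowest lower bound of 31.6 among the other 6. Within *Nkx2.9*LacZ/LacZ the highest library was 5.42 times the lowest, within *Nkx2.9*+/+ 11.7 times. Within *Nkx2.9*LacZ/+ it was at least 14.2-fold higher, against a floor of 3 reads (4.89 normalized counts) in column 4.

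*Dlx2*, the convergent neighbour of *Dlx1*, had 7.53, 0 and 6.01 normalized counts in columns 1 to 3, 0, 8.54 and 15.5 in columns 4 to 6 and 10.3, 4.21 and 1.47 in columns 7 to 9. *Dlx5*, on another chromosome, had 20.3, 1.83 and 11.2 in columns 1 to 3, 0, 17.1 and 18.8 in columns 4 to 6 and 5.17, 10.5 and 1.47 in columns 7 to 9. The lowest library of each genotype was again column 2, 4 or 9 for both genes, and these were also the 3 lowest of the 9. The differences rest on few reads. *Dlx5* had 2 reads each in columns 2, 7 and 9, and *Dlx2* had 2 in column 9 against 4 and 6 in columns 7 and 8, so their exact Poisson intervals overlap those of other libraries, unlike for *Dlx1*. Over all genes tested, the lowest library of each genotype was the one lowest for *Dlx1* in 3.75% of 16993 genes, and the same 3 libraries were the 3 lowest of 9 in 1.29%. The columns were read from *Dlx1* itself, so it does not count toward that pattern. Summed over the 3 *Dlx* genes, columns 2, 4 and 9 had 13.7, 0 and 7.36 normalized counts, and the other 6 libraries between 59.6 and 104.

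**Figure D1:**
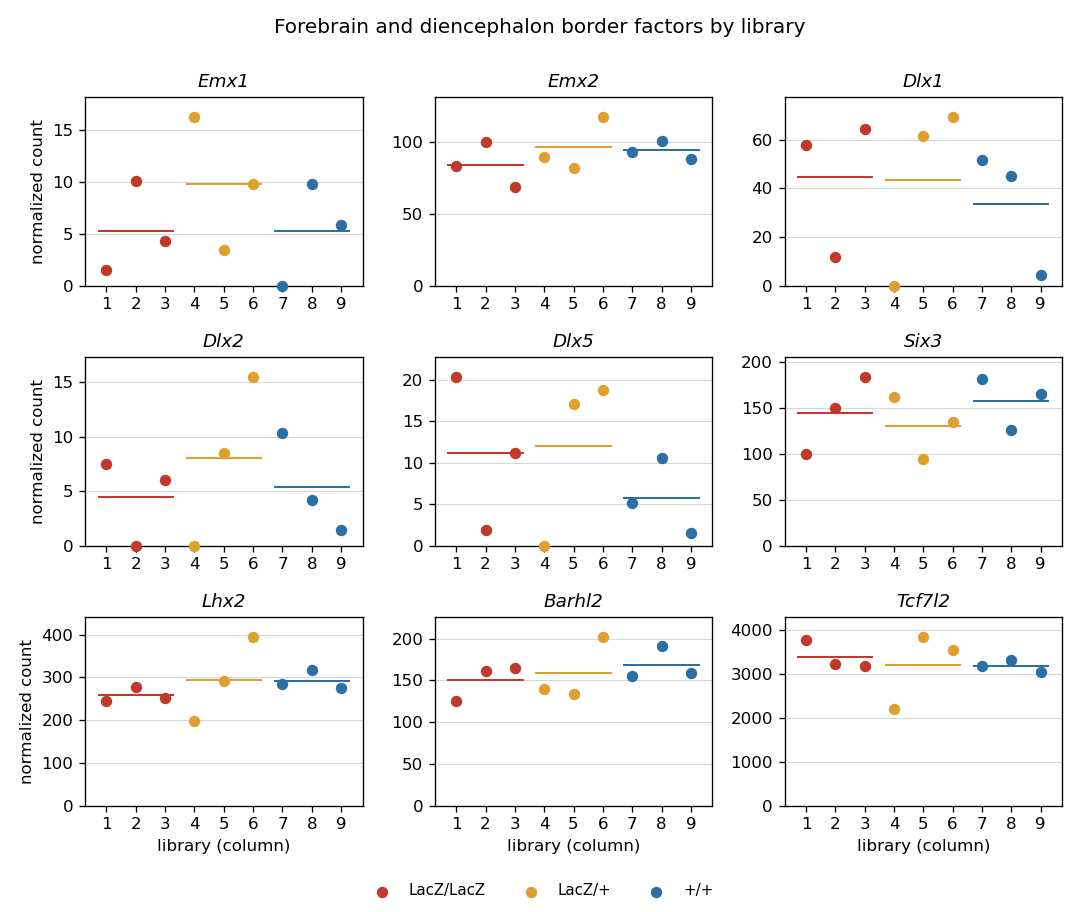
Normalized count (vertical axis, from 0) of each of the 9 factors in each library (horizontal axis, column 1 to 9), with points coloured by genotype and lines at the genotype means. *Dlx1*, *Dlx2* and *Dlx5* are lowest in columns 2, 4 and 9, while *Emx2*, *Six3*, *Lhx2*, *Barhl2* and *Tcf7l2* have a highest library at most 2.0 times their lowest.

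The sequence upstream of *Dlx2* is shown because it could be read outside annotated exons, beside those of *Barhl2* and *Tcf7l2*, which were not lowest in columns 2, 4 and 9 together. Each is the 250 bases before a RefSeq start, from the GRCm38.p6 promoter table, printed 5′ to 3′ on the strand of the gene, with the motif CACGTG in capitals. They lie at chr2:71546755-71547004 for *Dlx2* (minus), chr5:106458167-106458416 for *Barhl2* (minus) and chr19:55741560-55741809 for *Tcf7l2* (plus). The table held 10 windows for 8 of the 9 factors, with none for *Dlx5*, and 5 of the windows overlap annotated exons.
Dlx2: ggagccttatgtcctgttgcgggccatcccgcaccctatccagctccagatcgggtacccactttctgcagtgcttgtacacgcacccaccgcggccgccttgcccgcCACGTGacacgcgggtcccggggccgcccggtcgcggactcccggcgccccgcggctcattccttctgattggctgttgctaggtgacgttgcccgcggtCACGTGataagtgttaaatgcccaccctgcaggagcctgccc
Barhl2: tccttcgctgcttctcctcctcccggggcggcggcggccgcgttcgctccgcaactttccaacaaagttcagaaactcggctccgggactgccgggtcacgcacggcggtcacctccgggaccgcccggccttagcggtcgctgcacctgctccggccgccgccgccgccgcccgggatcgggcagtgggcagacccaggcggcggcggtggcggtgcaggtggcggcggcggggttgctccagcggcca
Tcf7l2: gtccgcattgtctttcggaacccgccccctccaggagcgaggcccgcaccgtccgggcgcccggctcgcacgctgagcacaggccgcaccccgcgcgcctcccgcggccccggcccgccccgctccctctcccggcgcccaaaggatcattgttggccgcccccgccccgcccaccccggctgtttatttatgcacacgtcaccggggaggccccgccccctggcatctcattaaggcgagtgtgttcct
Each of these windows was rich in G and C, with 66.4%, 74.8% and 72.8% against a median of 52.4% over 32851 windows of the same length. They held 24, 36 and 30 CG pairs against a median of 6. On both strands, the search covered the E-box letters CACGTG, the TATA letters TATAA, the CAAT letters CCAAT, the GC-box letters GGGCGG and the homeobox letters TAATTA, which contain the shorter ATTA, also searched. *Dlx2* held 2 copies of CACGTG, which 6.02% of all windows hold, and 1 each of CCAAT and GGGCGG. *Barhl2* held 3 copies of GGGCGG and *Tcf7l2* 6, which 32.7% of all windows hold, and *Tcf7l2* held 1 ATTA. The TATA and TAATTA letters were in none of these 3 windows. Windows outside exons that are not printed were those of *Lhx2*, with 72.8% G and C, 25 CG pairs and 4 copies of GGGCGG, and of a further *Tcf7l2* start (chr19:55895071-55895320), with 40.8% G and C, 7 CG pairs, 1 TATAA, 3 copies of ATTA and no GGGCGG. A match describes the letters only, and the shares are over all windows rather than windows as rich in G and C.

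*Emx1* and *Emx2*, the homeobox pair of the dorsal telencephalon, did not share the *Dlx* pattern. *Emx1* had 1.51, 10.1 and 4.29 normalized counts in columns 1 to 3, 16.3, 3.42 and 9.79 in columns 4 to 6 and 0, 9.82 and 5.89 in columns 7 to 9. Its highest value was in column 4, where *Dlx1* was at 0, but at most 14 reads stood behind any library. *Emx2* had 83.5, 99.7 and 68.7 normalized counts in columns 1 to 3, 89.6, 82.0 and 117 in columns 4 to 6 and 93.1, 101 and 88.3 in columns 7 to 9. Its highest library was 1.71 times its lowest, and columns 2, 4 and 9 lay inside the range of the other 6. Its antisense neighbour *Emx2os* ranged from 37.5 to 52.3 normalized counts.

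*Six3*, a homeobox factor of the anterior forebrain and eye, had 100.1, 150.0 and 184 normalized counts in columns 1 to 3, 161, 93.9 and 135 in columns 4 to 6 and 181, 126 and 166 in columns 7 to 9. Its 3 lowest libraries were columns 1, 5 and 8, again 1 of each genotype but none of those low in *Dlx1*. *Six3os1*, which runs opposite to it, ranged from 199.9 to 388 normalized counts and was highest in column 4. *Six6*, the closest relative of *Six3* in the eye and hypothalamus, was at 0 in all 9 libraries.

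The LIM homeobox factor *Lhx2* had 245, 278 and 253 normalized counts in columns 1 to 3, 197, 290 and 395 in columns 4 to 6 and 284, 316 and 275 in columns 7 to 9. Its extremes were both in *Nkx2.9*LacZ/+, where column 6 was 2.0 times column 4. *Barhl2*, a Bar-class homeobox factor of the diencephalon, had 126, 161 and 165 normalized counts in columns 1 to 3, 140.2, 134 and 202 in columns 4 to 6 and 155, 192 and 159 in columns 7 to 9. Its paralogue *Barhl1* ranged from 209 to 316. Neither *Lhx2* nor *Barhl2* separated the genotypes.

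*Tcf7l2* had 3788, 3231 and 3181 normalized counts in columns 1 to 3, 2197, 3850 and 3556 in columns 4 to 6 and 3191, 3330 and 3054 in columns 7 to 9. All libraries but column 4 lay between 3054 and 3850, and column 4 lay below them. Columns 2 and 9, in which *Dlx1* was low, lay within 3054 to 3231. Its highest library was 1.75 times its lowest.

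The spread between libraries of one genotype was largest for *Dlx1*, also relative to its level. The residual standard deviation (SD) on the log2(normalized count + 1) scale was 2.40 for *Dlx1*, and 0.0412% of the 16993 genes had a value as large. It was 5.50 times the limma trend at its level, whereas the median gene was at 0.97 of the trend. Without column 4 it was 1.43. *Dlx5* had a residual SD of 1.78 and *Dlx2* of 1.71, which are 2.22 and 1.74 times the trend at their low levels. *Emx1* had 1.35, at 1.54 times the trend. *Six3*, *Lhx2*, *Tcf7l2*, *Barhl2* and *Emx2* had 0.38, 0.30, 0.27, 0.24 and 0.22, which are 1.72, 1.62, 1.73, 1.15 and 0.89 times the trend at their higher levels, beside a median of 0.29 over all genes. Without column 4 the residual SD was 1.19 for *Dlx5*, 0.17 for *Lhx2* and 0.10 for *Tcf7l2*, and without column 6 it was 0.20 for *Lhx2*.

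**Figure D2:**
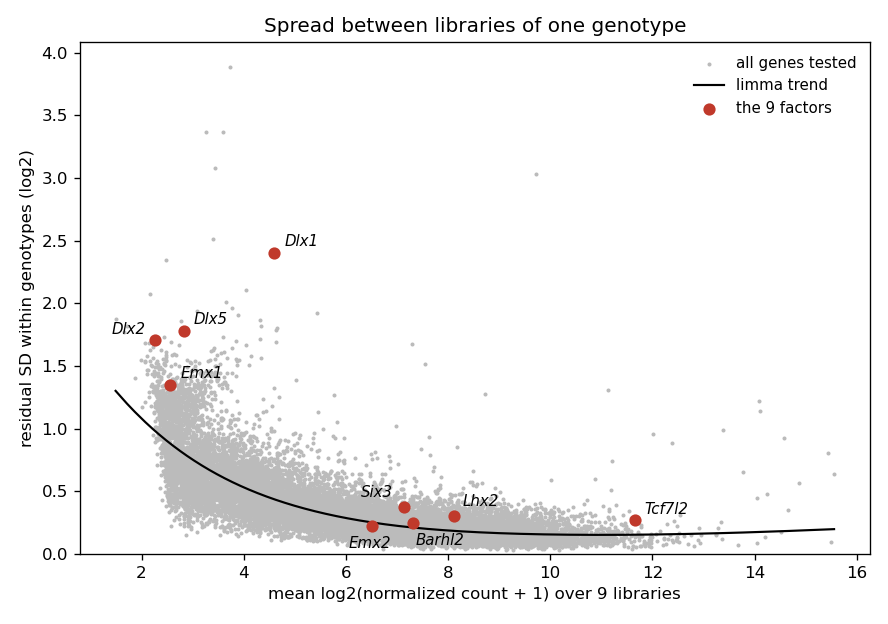
Residual SD within genotypes of log2(normalized count + 1) (vertical axis) against the mean log2 level over 9 libraries (horizontal axis). Grey points are the 16993 genes tested, the line is the limma trend and red points are the 9 factors. *Dlx1* at 2.40 lies far above the trend, while *Emx2* at 0.22 lies close to it.

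The first comparison asks whether loss of *Nkx2.9* changed these factors, in *Nkx2.9*LacZ/LacZ-labelled against *Nkx2.9*+/+-labelled libraries. None of the 9 passed, with 0 at an unadjusted limma p under 0.05, beside 2.60% of all genes tested, and 0 after Benjamini-Hochberg adjustment, beside 0% of all genes. DESeq2 and edgeR also called 0 of the 9 before and after adjustment. The genotypes overlapped for all 9 factors, beside 9.52% of all genes whose values did not overlap. *Dlx1* had 44.8 ± 28.6 and 33.7 ± 25.6 normalized counts (SD, n = 3 each) in *Nkx2.9*LacZ/LacZ and *Nkx2.9*+/+, a log2 fold change of 0.64 with a standard error of 1.25. The 95% interval for its fold ran from 0.248 to 9.81, so a change of several fold in either direction was not detectable at this spread. *Tcf7l2* had 3400 ± 337 and 3192 ± 138 normalized counts, and the interval for its fold ran from 0.830 to 1.36. *Lhx2* had 259 ± 17.2 and 292 ± 21.6 normalized counts, and its interval ran from 0.667 to 1.18. Over the 9 factors the median log2 fold change was -0.15, with 4 positive and 5 negative, beside a median of 0.01 over all genes. The smallest exact permutation p was 0.2 (*Lhx2*, two-sided), where 3 libraries against 3 cannot give less than 0.1.

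In *Nkx2.9*LacZ/+-labelled against *Nkx2.9*+/+-labelled libraries, which shares the *Nkx2.9*+/+ libraries with the first comparison, 0 of the 9 factors had an unadjusted limma p under 0.05, beside 2.78% of all genes. The genotypes overlapped for all 9, beside 6.91% of genes whose values did not. *Emx1* had the largest log2 fold change, 1.16 with a standard error of 0.89, from 9.83 ± 6.44 against 5.24 ± 4.94 normalized counts (SD, n = 3 each), and it ran from 0.12 to 1.84 when 1 library was left out. *Six3* had 130.0 ± 33.9 and 157 ± 28.6 normalized counts, a log2 fold change of -0.29 with a standard error of 0.24. *Dlx1* had 43.6 ± 38.0 against 33.7 ± 25.6 normalized counts but a log2 fold change of -0.53, because the 0 of column 4 weighs more on the log scale. Without column 4, *Dlx5* and *Tcf7l2* had unadjusted limma p-values of 0.0407 and 0.0493 and log2 fold changes of 1.75 and 0.21, in a fit in which 5.49% of all genes were under 0.05. The remaining pair of *Nkx2.9*LacZ/+ libraries then excludes the lowest *Dlx* library of that genotype while the *Nkx2.9*+/+ libraries still include theirs.

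In *Nkx2.9*LacZ/LacZ-labelled against *Nkx2.9*LacZ/+-labelled libraries, which shares libraries with both other comparisons, 0 of the 9 factors had an unadjusted limma p under 0.05, beside 2.64% of all genes, and the values of all 9 overlapped, beside 8.71% of genes whose values did not. *Dlx1* had nearly equal means, 44.8 ± 28.6 against 43.6 ± 38.0 normalized counts (SD, n = 3 each), and a log2 fold change of 1.17 with a standard error of 1.25. That value was -0.85 without column 4, where *Dlx1* was at 0, -0.060 with edgeR and -0.59 with log2 *Xist* as a covariate. *Emx2* had 84.0 ± 15.5 and 96.4 ± 18.7 normalized counts, a log2 fold change of -0.20 with a standard error of 0.20. *Barhl2* had 150.5 ± 21.6 and 159 ± 37.8 normalized counts, a log2 fold change of -0.06. Without column 4, *Lhx2* had a log2 fold change of -0.39 with an unadjusted limma p of 0.0135, and 1 of the 9 factors was then under 0.05, beside 2.90% of all genes.

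**Figure D3:**
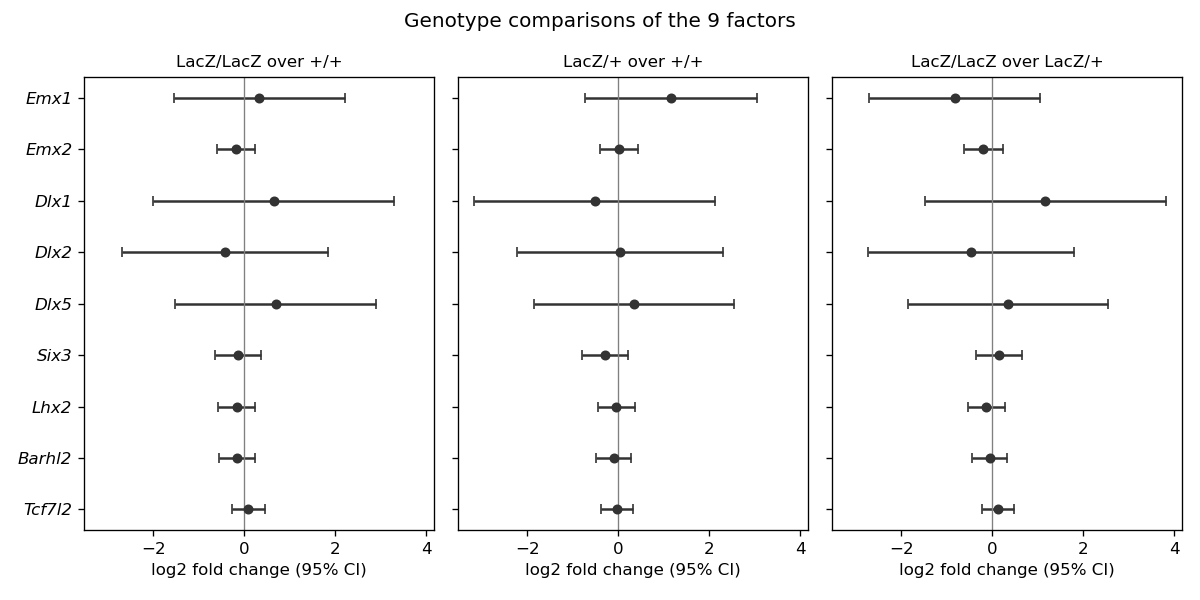
Log2 fold change (horizontal axis) of the 9 factors (vertical axis) in the 3 genotype comparisons, with 95% confidence intervals from limma as bars. The intervals of all 9 include 0 in every panel and are widest for *Dlx1*, *Dlx2*, *Dlx5* and *Emx1*.

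Antisense genes and paralogues of the factors were read library by library in the same way. *Dlx6*, the convergent partner of *Dlx5*, had 15.8, 3.66 and 5.15 normalized counts in columns 1 to 3, 3.26, 9.39 and 17.1 in columns 4 to 6 and 7.76, 9.82 and 0.736 in columns 7 to 9. Its opposite-strand noncoding neighbour *Dlx6os1* had 30.9, 3.66 and 30.9 in columns 1 to 3, 0, 32.4 and 25.3 in columns 4 to 6 and 15.5, 28.8 and 6.62 in columns 7 to 9. Both were lowest in columns 2, 4 and 9, but *Dlx6os1* shares 491 exonic bases with other genes, *Dlx6* among them. *Dlx1as* was at 0 in columns 2 and 7 and at 3.26 in column 4. These were its 3 lowest libraries, so column 9 was not among them, unlike for *Dlx1*.

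The prethalamus and hypothalamus list had 6 of 9 genes over the minimum, and 3 of them, with *Isl1* and *Sim1* among them, were lowest within each genotype in columns 2, 4 and 9, beside 3.75% of all genes. *Isl1*, a LIM homeobox factor, had 36.1, 28.4 and 66.1 normalized counts in columns 1 to 3, 19.6, 52.9 and 64.5 in columns 4 to 6 and 49.1, 88.4 and 14.7 in columns 7 to 9. Its 3 low libraries lay between 14.7 and 28.4 and its other 6 between 36.1 and 88.4. *Rax*, a hypothalamic factor, was at 0 in all 9 libraries. The lists were written with earlier results of these data known, so these counts describe the libraries and are no independent test.

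The thalamus, epithalamus and pretectum list had 10 of 11 genes over the minimum, and 4 of them (*Gbx2*, *Rora*, *Ntng1* and *Pax6*) were lowest within each genotype in columns 2, 4 and 9, beside 3.75% of all genes. For *Pax6* these columns were not the 3 lowest of the 9. *Gbx2*, a thalamic homeobox factor, had 23.3, 19.2 and 53.2 normalized counts in columns 1 to 3, 0, 39.3 and 33.4 in columns 4 to 6 and 44.0, 21.8 and 12.5 in columns 7 to 9. *Rora*, a nuclear receptor of thalamic neurons, had 179, 137 and 168 in columns 2, 4 and 9 and between 219 and 279.97 in the other 6. The splits were narrower than for *Dlx1*. *Lhx9*, a LIM homeobox factor also made in the pretectum, ranged from 655 to 884 normalized counts without that pattern. *Gbx2*, *Rora*, *Isl1* and *Pax6* were picked after their values were seen.

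**Figure D4:**
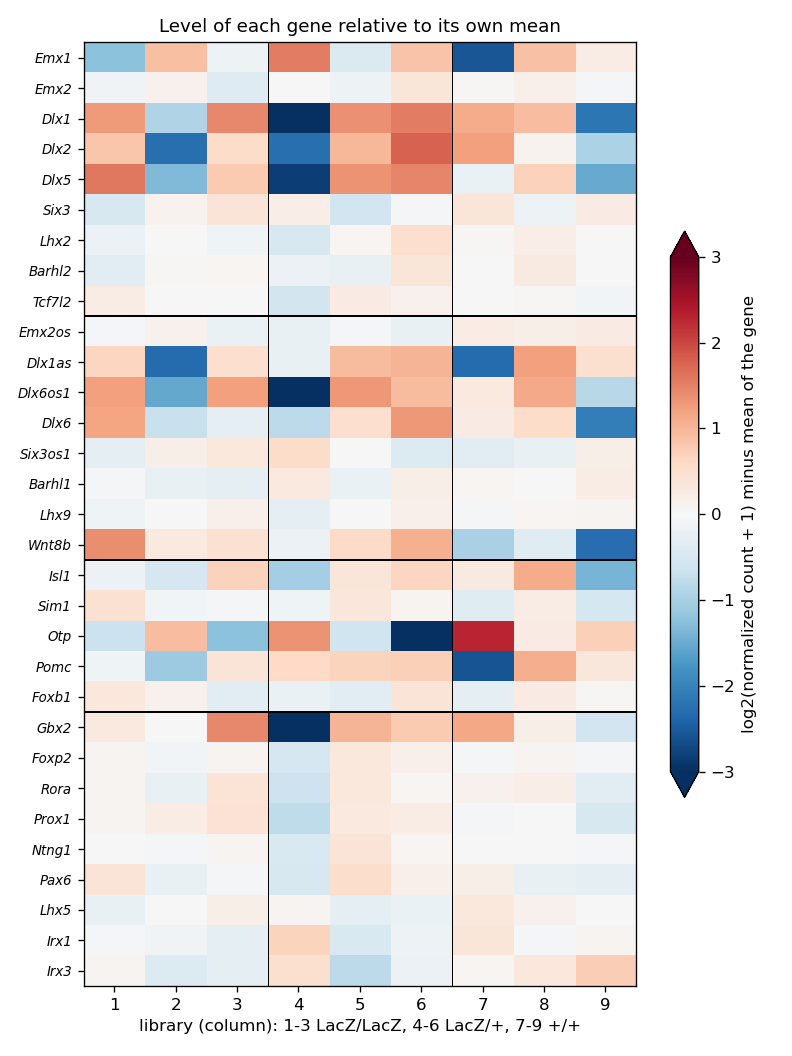
Log2(normalized count + 1) of each gene minus its own mean over the 9 libraries (colour, with the ends of the scale at 3 in either direction), for the 9 factors, their antisense genes and paralogues with *Wnt8b*, the prethalamus and hypothalamus list and the thalamus, epithalamus and pretectum list, separated by horizontal lines (vertical axis, genes). Columns are libraries (horizontal axis), and blue cells of *Dlx1*, *Dlx2*, *Dlx5* and *Dlx6os1* fall in columns 2, 4 and 9. List genes under the minimum mean normalized count are not drawn, nor is every gene over it.

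The other lists were read for what moved with the *Dlx* genes. Of the 7 telencephalic genes over the minimum 1 was lowest (*Sp8*) and 1 highest (*Neurod2*) in columns 2, 4 and 9 within each genotype. Of the 20 midbrain genes 1 was lowest and 3 highest (*En2*, *Gata3* and *Sox14*). Over all genes the shares were 3.75% for the lowest and 3.77% for the highest. Of 8 genes of the caudal border 1 was lowest (*Spry1*). None of 3 choroid plexus genes, 6 blood genes or 5 genes of the meninges was lowest there, and 1 of the meninges (*Col1a2*) was highest. *Xist*, which females express, had 4607, 79.9 and 47.1 normalized counts in columns 2, 4 and 9, and the summed Y-linked count was 1.83, 606 and 1075, so the low *Dlx* libraries were not of one sex. All 3 *Nkx2.9*LacZ/LacZ-labelled libraries had *Xist* between 4607 and 5182 and a Y-linked sum of at most 2.26, whereas those labelled *Nkx2.9*+/+ had Y-linked sums of 0, 505 and 1075, so sex moved with that comparison. Columns 2, 4 and 9 had 4522261, 2584074 and 5808057 reads, and columns 2 and 4 were the shallowest of their genotype while column 9 was not. The part of depth in these values was not tested. The part of the dissection border in these values was not tested.

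*Wnt8b*, a Wnt ligand of the caudal forebrain, was lowest within each genotype in the same columns. It had 13.7 normalized counts in column 2 against 15.5 and 30.9 in its genotype, 9.78 in column 4 against 17.1 and 24.5, and 1.47 in column 9 against 5.17 and 8.42. These rest on 15, 6 and 2 reads in columns 2, 4 and 9, beside 18 in column 3 and 2 in column 7. The exact Poisson intervals of columns 2, 4 and 9 overlap those of the other libraries of their genotype. Unlike *Dlx1*, *Wnt8b* was also lower in all 3 libraries labelled *Nkx2.9*+/+ than in any other. The interval of column 8 (4.35 to 14.7 normalized counts) nevertheless overlaps that of column 4 (3.59 to 21.3). With log2 *Dlx1* as a covariate, the log2 fold change of *Wnt8b* in *Nkx2.9*LacZ/LacZ-labelled against *Nkx2.9*+/+-labelled libraries moved from 1.92 (standard error 0.55) to 1.76 (0.48), with unadjusted limma p-values of 0.00312 and 0.00205. The paper reports the opposite direction, with lower *Wnt8b* in *Nkx2.9*LacZ/LacZ midbrains, and the cause of the difference was not tested. The adjusted limma p of *Wnt8b* was 1.00 without the covariate.

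**Figure D5:**
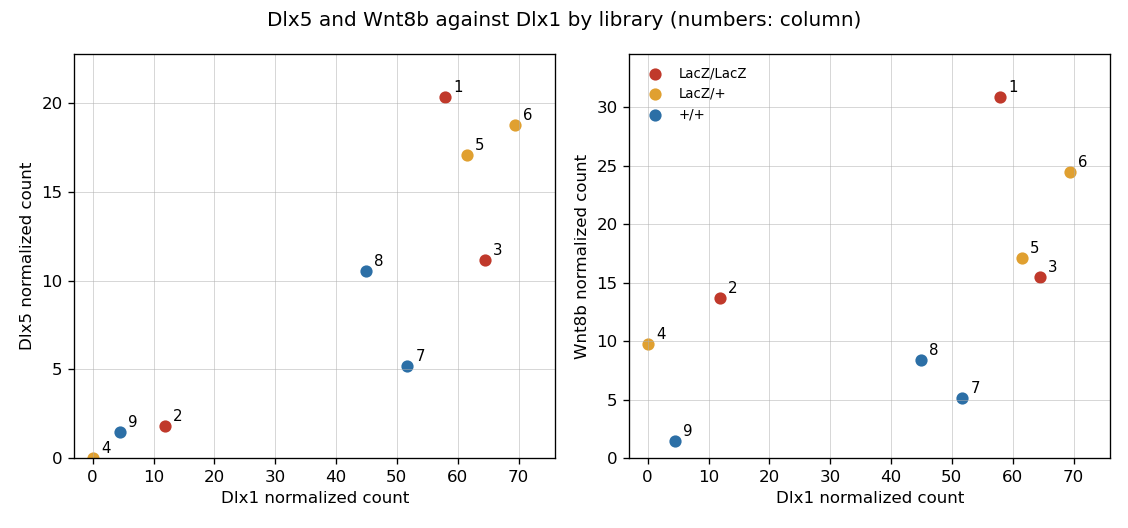
Normalized counts of *Dlx5* (left) and *Wnt8b* (right) on the vertical axes against *Dlx1* (horizontal axes), 1 point per library with its column number and coloured by genotype. *Dlx5* is lowest, at 0 to 1.83, in the 3 libraries with least *Dlx1*, whereas the *Wnt8b* points of the 3 *Nkx2.9*+/+ libraries, at 1.47 to 8.42, lie below all others.

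No pair of factors passed adjustment for a correlation between libraries. Because the *Dlx* values fall into separate sets of libraries, no correlation over all 9 is given for them. Of the 15 pairs among the other 6 factors, Pearson's r over 9 libraries ran from -0.62 to 0.72. *Lhx2* and *Barhl2* had the highest r, 0.72 (permutation p = 0.0284, adjusted 0.272) with a Spearman's rho of 0.57 (permutation p = 0.121, adjusted 0.443), and r was 0.58 without the 2 libraries farthest from the median of *Lhx2*. *Six3* and *Tcf7l2* had the lowest r, -0.62 (permutation p = 0.0652, adjusted 0.272) with a Spearman's rho of -0.83 (permutation p = 0.00827, adjusted 0.124), and r was -0.31 without the 2 libraries farthest from the median of *Six3*. Over the 6 libraries with more *Dlx1* the same pair had an r of -0.94 (permutation p = 0.0181, adjusted 0.475) and a rho of -0.94 (permutation p = 0.0167, adjusted 0.600), with r at -0.84 without the 2 farthest. Within these 6 libraries, 0 of the 36 pairs passed adjustment, with a smallest adjusted permutation p of 0.475.

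Among the 5 genes whose levels most resembled the mean standardized pattern of the 9 factors over the 9 libraries were *Pcgf3*, *Cep97*, *Camsap2* and *Spata33*, with Pearson's r between 0.92 and 0.95. The mean pattern was lowest in column 4 (-0.96 SD units) and highest in column 6 (1.02), and *Pcgf3* had 657 and 923 normalized counts there.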

How the data were processed

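RNA of 9 libraries was sequenced. The authors removed ribosomal RNA, sequenced paired ends, aligned with HISAT2 (genome GRCm38, mm10) and counted per gene with featureCounts, as their methods state. The deposited signal is a normalized count, a read count divided by a DESeq2 size factor per library. Tool versions, the annotation release and the strand setting are not given in the sources used here, and the labels describe RNA isolation and library differently. The authors' 3 tables of DESeq2 comparisons were not used.

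Whole reads were recovered for 100% of 210686 values above 0, within 0.05 of a whole number. limma 3.58.1 in R 4.3.3 was fitted to log2(normalized count + 1) of the 16993 genes with a mean of at least 5, with a mean-variance trend, all 9 libraries, two-sided tests and Benjamini-Hochberg adjustment, and was tested on simulated data. Genes under the minimum came from a fit without it. Fold changes are on that log scale. The added 1 shrinks those of low genes, and a library at or near 0 can move them away from the ratio of the means. Alternatives included edgeR 4.0.16 and DESeq2 1.42.0 on the recovered reads. Positions come from the GENCODE annotation of GRCm38 and promoter sequences from RefSeq. Figures used matplotlib 3.10.9 in Python 3.11.15.

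The 9 factors and the gene lists were chosen with earlier results of these data known. The text names the 9 factors, a list of their antisense genes and paralogues with *Wnt8b*, in each other list the 3 genes with the highest mean and those with an unadjusted p under 0.05, the 5 genes most like the mean of the factors, *Xist*, the Y-linked genes and *Nkx2-9*. Some genes of this rule and of the lists are not reported here by themselves. Any other gene was picked with its values in view. The 3 genotype comparisons share libraries.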

Additional observations from a re-analysis of the deposited data

How the results depend on the processing

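With 3 libraries per genotype, and at most 19 reads in any library for *Emx1* and *Dlx2*, the spread and the depth both limit these comparisons. No paired analysis was possible because the columns carry no replicate number. The settings were a minimum mean of 20 or none, pseudocounts of 0.5 and 5, upper-quartile and quantile normalization, no variance trend, the libraries of the 2 genotypes alone, log2 total reads or log2 *Xist* as covariates, edgeR, DESeq2 and, chosen after seeing the data, log2 *Dlx1* as a covariate. Under none of these did a tested factor have an unadjusted p under 0.05, where the minimum of 20 left 6 factors, the *Dlx1* covariate the 8 other than *Dlx1*, and the other settings all 9. Leaving out 1 library gave 0 to 0 factors under 0.05 in *Nkx2.9*LacZ/LacZ against *Nkx2.9*+/+, 0 to 2 in *Nkx2.9*LacZ/+ against *Nkx2.9*+/+ and 0 to 1 in *Nkx2.9*LacZ/LacZ against *Nkx2.9*LacZ/+. Both higher counts came without column 4.

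Over all genes, the counts under 0.05 were 263, 242 and 288 in these 3 comparisons with a minimum of 20, where fewer genes were tested, and 1135, 1137 and 1132 without a minimum, where more were. In *Nkx2.9*LacZ/+ against *Nkx2.9*+/+ the count was 264 with DESeq2 (which had 1 adjusted call), 790 with total reads as covariate, 298 with *Xist* and 280 with the 2 genotypes alone, against 473, and the cause was not tested. Leaving out 1 library gave 283 to 827, 375 to 933 and 293 to 740.

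Several log2 fold changes changed sign, those of *Dlx1* among them although they were not near 0, and in every such case the unadjusted p stayed over 0.05 unless stated in the report. In *Nkx2.9*LacZ/LacZ against *Nkx2.9*+/+, *Emx1* (0.33) was -0.42 with quantile normalization, -0.010 with total reads, -0.31 with edgeR and -0.22 with DESeq2. *Dlx1* (0.64) was -0.26 with *Xist*, and *Dlx2* (-0.43) was 0.18 with edgeR. In *Nkx2.9*LacZ/+ against *Nkx2.9*+/+, *Dlx1* (-0.53) was 0.0052 with quantile normalization, 0.32 with *Xist*, 0.65 with edgeR and 0.38 with DESeq2, and *Dlx2* (0.04) was -0.16 with a pseudocount of 0.5. *Lhx2* (-0.04) was 0.080 with *Xist*, 0.0044 with *Dlx1*, 0.025 with edgeR and 0.021 with DESeq2. *Barhl2* (-0.10) was 0.019 with *Xist*, and *Tcf7l2* (-0.04) was 0.014 with *Dlx1*, 0.0053 with edgeR and 0.0044 with DESeq2. In *Nkx2.9*LacZ/LacZ against *Nkx2.9*LacZ/+, *Dlx1* (1.17) was -0.59 with *Xist* and -0.060 with edgeR. *Dlx5* (0.35) was -0.19 with quantile normalization, -0.68 with *Xist*, -0.48 with *Dlx1*, -0.20 with edgeR and -0.13 with DESeq2. The cause was not tested.

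Leaving out 1 library, log2 fold changes ran in *Nkx2.9*LacZ/LacZ against *Nkx2.9*+/+ from -0.71 to 1.01 for *Emx1*, -0.42 to 1.40 for *Dlx1*, -0.99 to 0.55 for *Dlx2* and -0.34 to 0.093 for *Six3*. In *Nkx2.9*LacZ/+ against *Nkx2.9*+/+ they ran from 0.12 to 1.84 for *Emx1*, -0.13 to 0.13 for *Emx2*, -1.59 to 1.49 for *Dlx1*, -0.77 to 1.25 for *Dlx2*, -0.40 to 1.75 for *Dlx5*, -0.28 to 0.22 for *Lhx2*, -0.29 to 0.0050 for *Barhl2* and -0.19 to 0.21 for *Tcf7l2*. In *Nkx2.9*LacZ/LacZ against *Nkx2.9*LacZ/+ they ran from -0.85 to 2.22 for *Dlx1*, -1.68 to 0.52 for *Dlx2*, -1.07 to 1.18 for *Dlx5*, -0.070 to 0.39 for *Six3*, -0.39 to 0.11 for *Lhx2*, -0.17 to 0.12 for *Barhl2* and -0.13 to 0.28 for *Tcf7l2*. The residual SD of *Dlx1* ran from 1.43 without column 4 to 2.61.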

Other observations

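Over the other gene lists, beside 2.60% of all genes, unadjusted limma p-values under 0.05 in *Nkx2.9*LacZ/LacZ-labelled against *Nkx2.9*+/+-labelled libraries were held by 4 of 5 sex-linked genes (the Y-linked *Ddx3y*, *Eif2s3y*, *Kdm5d* and *Uty*, all lower, with a list median of -4.27), 1 of 8 genes of the list of antisense genes, paralogues and *Wnt8b* (*Wnt8b*, 1.92), 1 of 7 telencephalic genes over the minimum (*Neurod6*, log2 fold change 0.72), 3 of 20 midbrain genes (*En1*, *Pax7* and *Pitx3*, at -0.60, -0.63 and -0.71), 1 of 8 caudal border genes (*Tph2*, -1.75), 1 of 3 choroid plexus genes (*Kl*, -1.25) and 1 of 5 genes of the meninges (*Foxc1*, -0.99), none of 6 blood genes, and none of the 6 prethalamic and hypothalamic and 10 thalamic and pretectal genes. No list gene had an adjusted limma p under 0.05 in any comparison. With log2 *Dlx1* as a covariate, a setting chosen after seeing the data, the log2 fold changes of *En1*, *Pax7* and *Tph2* in this comparison were -0.50, -0.57 and -1.67 with unadjusted limma p-values of 0.00479, 0.00948 and 0.00167. *En2*, which was highest in columns 2, 4 and 9 within each genotype, went from -0.44 (standard error 0.21) to -0.36 (0.13). From its RNA sequencing the paper reports *En1*, *En2*, *Pax7* and *Tph2* as upregulated in *Nkx2.9*LacZ/LacZ midbrains and *Wnt8b* as downregulated. The directions under the labels are the reverse for each of these genes, and the cause was not tested.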
